A study of Homo sapiens with 12 samples.

Results

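The cytosolic ribosomal protein genes were examined in T98G and U251 cells, established human glioblastoma lines, with and without over-expression of PEPD, the dipeptidase also called prolidase. Members were the genes of the count table whose symbol is RPL or RPS followed by digits and, where present, A, X, L, L1 or AL, together with RPLP0, RPLP1, RPLP2 and RPSA. Pseudogenes were left out. There were 85 members among 63241 genes, 53 of the large and 32 of the small subunit by name, and 8 of them are paralogues of a core gene. Polyadenylated RNA was sequenced from 12 libraries in 4 groups of 3: T98G PEPD-OE, T98G NC, U251 PEPD-OE and U251 NC. PEPD-OE cells carried forced expression of PEPD, by a vector and in a clone or pool that the labels do not name. The abbreviation NC is not expanded in the labels either. Nothing in the labels tells if the 3 replicates grew as separate cultures, so the p-values below speak only for the spread among these libraries, and that spread may be technical.

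Each cytosolic ribosome joins a small subunit, which decodes the mRNA, to a large subunit, which forms the peptide bond and carries the exit tunnel. The proteins are made in near-equal numbers and assembled on ribosomal RNA in the nucleolus. Most of their mRNAs begin with a C followed by an unbroken pyrimidine run, the terminal oligopyrimidine (TOP) motif, through which LARP1 and the kinase mTOR control translation. Ribosome production is commonly high in dividing tumour cells, and translational control through TOP motifs need not change an mRNA's level.

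The first transcribed bases are shown because the TOP motif is what most of these genes share apart from their names. Each line gives 20 bases before and 20 from the annotated start in RefSeq (GRCh38.p14), 5′ to 3′ on the gene's strand. Capitals mark the pyrimidine run that begins with a C at the first transcribed base, where it is at least 5 bases long. The members shown are some of those described below, with RPL36A beside its paralogue RPL36AL and RPS27 beside RPS27L.
RPL10 (chrX:154398357-154398396, plus strand): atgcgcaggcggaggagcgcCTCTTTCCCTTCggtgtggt
RPL28 (chr19:55385912-55385951, plus strand): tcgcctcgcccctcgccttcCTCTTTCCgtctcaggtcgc
RPLP0 (chr12:120201092-120201131, minus strand): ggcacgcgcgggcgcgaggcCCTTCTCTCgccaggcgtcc
RPS3 (chr11:75399498-75399537, plus strand): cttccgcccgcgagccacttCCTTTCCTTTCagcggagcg
RPL36A (chrX:101390991-101391030, plus strand): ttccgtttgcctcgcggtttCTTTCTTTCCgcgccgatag
RPL36AL (chr14:49620607-49620646, minus strand): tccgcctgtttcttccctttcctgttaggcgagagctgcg
RPL17 (chr18:49492446-49492485, minus strand): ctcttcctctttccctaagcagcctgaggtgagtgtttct
RPS26 (chr12:56041898-56041937, plus strand): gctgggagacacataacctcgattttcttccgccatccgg
RPS27 (chr1:153990742-153990781, plus strand): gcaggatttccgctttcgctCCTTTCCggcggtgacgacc
RPS27L (chr15:63157458-63157497, minus strand): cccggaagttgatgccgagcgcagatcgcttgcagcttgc

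RefSeq windows were at hand for 68 members, and 47 of them (69.1%) had such a run at one or more annotated starts. Among all 27305 genes with a window the share was 5.14%. The run was present in 46 of 62 core members and in 1 of 6 paralogues, RPL22L1. Its median length among the members that had it was 8 bases and the longest was 19. The literal CTCTTT, searched on the gene's strand from 10 bases before to 20 after the start, was found in 22.1% of members against 1.61% of all genes, and CCTTTC in 26.5% against 1.64%. Both can lie inside the pyrimidine run, so they are not separate features. Over the whole 300-base window and on either strand, CCGGAAG, a form of the ETS factor site, was found in 35.3% of members against 12.2% of all genes. CACGTG, the E-box core that MYC binds, was found in 7.35% against 8.77%. RPL17, RPS26, RPL36AL and RPS27L, shown above in lower case throughout, have no run of 5 bases at these annotated starts. Most members thus share the pyrimidine start, while by annotated start the members that changed in T98G came from both kinds. Of 9 described below, 6 had the run, 2 had a window without it and 1 had no window. RPL17, 1 of these 2, has a pyrimidine run shortly before its annotated start, so its kind depends on that start.

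What the values stand for has a limit. The kit keeps the strand of origin, per the labels, and the strand setting of the counting is not given in the sources used here. In the whole table, the noncoding MALAT1 had 4272 counts and its antisense partner TALAM1 had 219603, and some members showed the same order. RPL15 held 1596 counts over all libraries, while NKIRAS1, a gene whose exons overlap RPL15 on the other strand, held 15580. RPL30 held 1105 counts and RPL30-AS1, opposite, held 9272. RPS23 held 1399 and ATG10, opposite, held 7739. Per kb of exon these partners stood at 20.3, 17.0 and 4.27 times the member, and they were the 3 of 33 partner rows with a count that exceeded their member. Exons of 30 members overlapped a gene on the other strand and 55 did not. Should the counting have used the wrong strand, the values under member names would be leftover reads and no plain expression levels. That was not tested here, so every value below is the level recorded under the gene's name, and partners are given where they hold many counts. In bulk RNA, fewer cells with a transcript and less RNA per cell cannot be told apart.

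Library totals ran from 464056 counts in T98G NC replicate 1 to 924204 in U251 PEPD-OE replicate 3. PEPD was higher in every PEPD-OE library than in every NC library, with log2 fold changes of 4.04 in T98G (edgeR adjusted p = 1.71e-32) and 4.16 in U251 (adjusted p = 1.86e-35). Of 9 glioblastoma and neural markers 7 held enough counts to be tested, with summed group means from 2284 to 6058 scaled CPM. S100B held 4 counts and CHI3L1 held 18 over all libraries. In T98G NC the sum was mostly CD44 (803.9), VIM (723.0) and SPARC (660.6). The 5 macrophage markers, none at 0 in all libraries, summed to at most 21.6, and 4 endothelial markers to at most 12.6. SOX2 and NES were near 0 in T98G, where SOX2 was at most 0.519 and NES at most 6.27, against at least 276.1 and 348.1 in U251. The sums of 4 fibroblast markers ran from 273.3 to 607.3, mostly COL1A2, and those of 4 epithelial markers from 56.6 to 146.8, with EPCAM at 0 in all libraries; their part in the results was not tested. U251 PEPD-OE replicate 1 stood apart from the other libraries of its group: its counts differed from theirs with chi-square values per degree of freedom of 2.10 and 2.53, where the other pairs within groups ranged from 1.31 to 1.88.

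Members together held 171014 counts, 1.87% of all. Core members ranged from 156 counts (RPS10) to 13964 (RPS2) over the 12 libraries, with a median of 1608. Per kb of exon the median core member had 489.9 counts, against 54.9 for all genes tested with an annotation. RPS2, a small subunit protein near the mRNA entry site, led with 5787 counts per kb, before RPL19 with 3832 and RPL41 with 2403. RPL8, RPL13A, RPS18 (opposite VPS52), RPL11 and RPS25 (opposite TRAPPC4) were also high, between 1443 and 2397 counts per kb. Near the lower end of the core set, RPS10 had 66.2 counts per kb, RPL34 had 65.7, RPL36A had 57.3 and RPS29 was the lowest at 42.1. Exon length here merges the exons of all annotated transcripts of a gene, so it can exceed the length of the mRNA in these cells. RPS29, with 415 counts over 9845 bases, held more counts than RPS10, with 156 over 2358 bases. The core members' recorded levels thus differed widely per merged length although their proteins enter each ribosome together. How much of this spread comes from the length measure was not tested. RPL17, RPL36A and RPS10 each overlap a readthrough gene on their own strand (RPL17-C18orf32, RPL36A-HNRNPH2 and RPS10-NUDT3), so reads in the shared exons may have been split or left uncounted. Member pseudogenes, 1623 of them, held 3215 counts, 1.88% of the members' own.

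**Figure D1:**
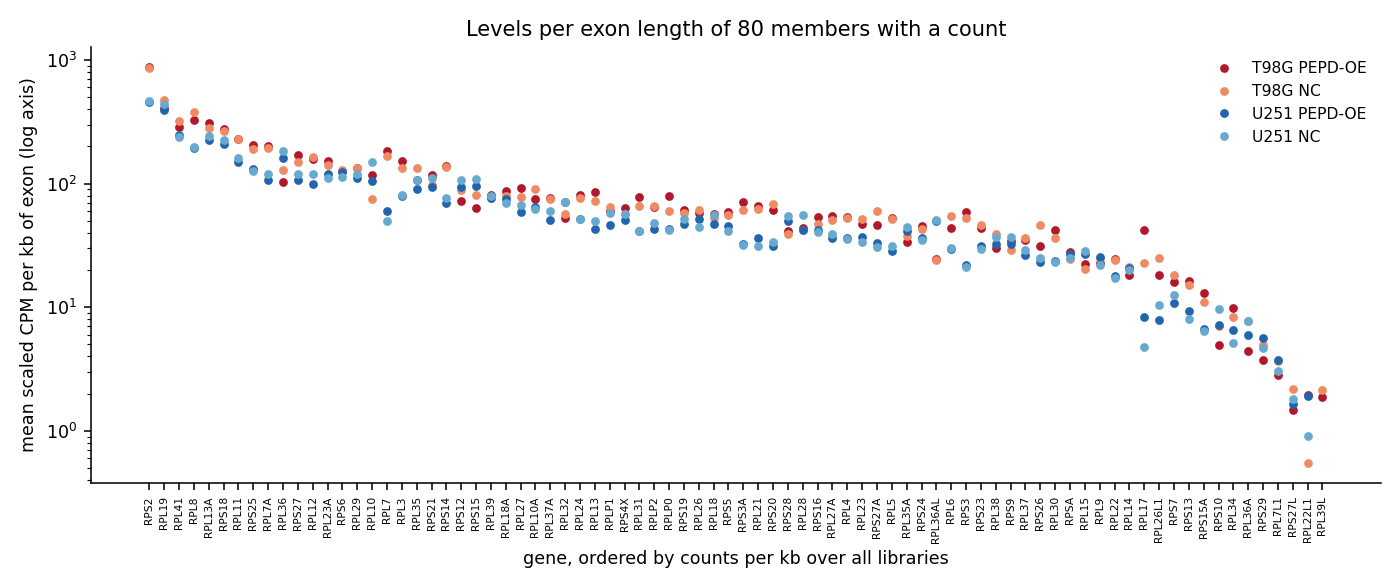
Mean scaled CPM per kb of exon on a log axis, for 80 members with a count, ordered along the horizontal axis by counts per kb over all libraries; each point is the mean of 3 libraries of one group, and a group at 0 has no point. RPS2 leads in all groups, most members lie close together across groups, and RPL17, RPL7 and RPL26L1 show wide gaps between the T98G and the U251 points.

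Paralogues were recorded at lower levels than their parents in most pairs. Per kb, RPS27L had 15.7 counts against 1197 for RPS27, RPL22L1 12.5 against 186 for RPL22, RPL26L1 (opposite RPL26L1-AS1) 133 against 475 for RPL26, RPL7L1 30.2 against 975 for RPL7 and RPL39L 7.55 against 703 for RPL39. RPL36AL, at 349.9 counts per kb, stood above RPL36A at 57.3, the one pair with the reverse order. Their totals were close, with 261 counts over 746 bases of exon for RPL36AL and 227 over 3964 bases for RPL36A. Most of that gap per kb thus lies in the annotated length. RPL3L and RPL10L had 0 counts in all libraries. A count of 0 allows up to 3 counts in a library, 3.25 to 6.46 per 1e6 of the library total without TMM scaling. RPL39L had 8 counts, all in T98G, and RPL22L1 had 29. These 4 paralogues did not pass the filter on low counts, which left 81 members and 8773 genes tested.

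Ribosomal protein genes as a whole took a larger part of the counts in T98G than in U251. Their share of each library was 1.86%, 2.05% and 2.12% in T98G PEPD-OE and 2.14%, 2.39% and 2.34% in T98G NC. It was 1.31%, 1.69% and 1.82% in U251 PEPD-OE and 1.63%, 1.61% and 1.59% in U251 NC. Every T98G library lay above every U251 library, and in T98G the PEPD-OE libraries all lay below the NC libraries. The share under mitochondrially encoded genes went the other way: it was 9.73%, 7.95% and 8.63% in T98G PEPD-OE and 6.14%, 5.94% and 5.07% in T98G NC. With the mitochondrially encoded genes taken out of the total, the members' share was 2.06%, 2.23% and 2.32% in T98G PEPD-OE against 2.28%, 2.54% and 2.47% in NC. The groups then overlapped only through PEPD-OE replicate 3 and NC replicate 1. The mean stayed lower in PEPD-OE, at 2.20% against 2.43%, where it was 2.01% against 2.29% of the full total. The part of the mitochondrially encoded genes in the difference was not tested.

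On the scale used for the tests, the sum of the members did not separate the treated from the control cells. Scaled CPM, counts per 1e6 of the TMM-scaled library size, summed to 22550 ± 1231 in T98G PEPD-OE and 22130 ± 1083 in T98G NC (SD, n = 3 each). The sums were 15980 ± 2253 in U251 PEPD-OE and 16900 ± 329.3 in U251 NC. PEPD-OE and NC libraries overlapped in both lines, and every T98G library again exceeded every U251 library. The lowest sum, 13527, belonged to U251 PEPD-OE replicate 1, and without it the U251 PEPD-OE mean was 17206 (n = 2), above that of NC.

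**Figure D2:**
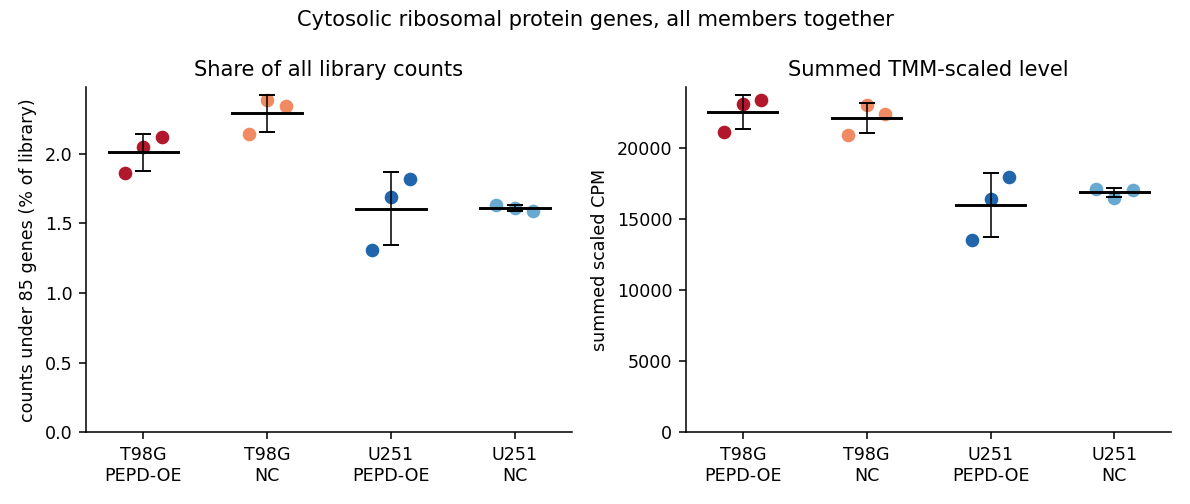
Points are libraries, horizontal bars group means and whiskers the SD over 3 libraries; the left panel plots the members' share of library counts in percent, the right panel their summed scaled CPM. T98G libraries lie above U251 libraries in both panels, and the lower share of T98G PEPD-OE on the left (1.86% to 2.12% against 2.14% to 2.39%) has no counterpart on the right.

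In T98G, few ribosomal protein genes passed the test when PEPD was over-expressed: 3 were higher and 6 lower among 81 (edgeR quasi-likelihood test, Benjamini-Hochberg adjusted p under 0.05). The 9 were 11.1% of the members, against 32.3% of all genes tested (17.7% higher and 14.7% lower). Without adjustment, 15 members had a p under 0.05. The members' median log2 fold change was 0.04, beside 0.00 over all genes, and their middle quartiles ran from -0.18 to 0.14, beside -0.45 to 0.48 over all genes. Fold changes within 0.5 of 0 were found for 75 of 81 members and for 53.3% of all genes. Core members had a median of 489.9 counts per kb against 54.9 for all genes tested with an annotation. Fold changes of genes with fewer counts are less precise, and no matching for level was done. Whether the members are steadier than other genes of their level was therefore not tested. The members without a call cannot be said to be equal in both groups, but 73 of 81 had a half-width (1.96 times the standard error, SE) under 0.5. In 22 members (27.2%) the groups did not overlap, against 43.5% of all genes.

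RPL10, a large subunit protein that joins late and sits near the catalytic centre, was the member with the smallest adjusted p. Its scaled CPM was 566.5, 553.1 and 572.7 in T98G PEPD-OE and 369.3, 366.4 and 352.5 in NC. All PEPD-OE libraries lay well above all NC libraries, and RPL10 rose by 0.64 in log2 units (adjusted p = 1.6e-07, SE 0.11). RPL10 (ENSG00000147403) lies on chromosome X from 154389955 to 154409168, plus strand. Its exons overlap those of AC245140.2 over 894 bases and DNASE1L1, a DNase-like gene, over 1649 bases on the other strand. AC245140.2 recorded 100.6, 84.1 and 94.0 scaled CPM in PEPD-OE and 132.9, 137.7 and 160.6 in NC. It moved the other way, with a log2 fold change of -0.64 (adjusted p = 0.00069, SE 0.16). DNASE1L1, with 214 counts in all, moved in the direction of RPL10, by 1.24 (SE 0.39, adjusted p = 0.0074). From which strand the reads under these 3 names came was not tested.

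RPL17, a protein at the exit tunnel, had 110.9, 90.4 and 112.5 scaled CPM in T98G PEPD-OE and 35.9, 63.7 and 67.7 in NC. The groups did not overlap, and T98G NC replicate 1 was the lowest. The log2 fold change was 0.85 (SE 0.19, adjusted p = 0.00018). RPLP0, the base of the stalk that recruits elongation factors, had 319.5, 325.7 and 300.6 scaled CPM in PEPD-OE and 213.1, 250.8 and 253.4 in NC. It rose by 0.39 in log2 units (adjusted p = 0.0095, SE 0.12), and the call was lost without T98G NC replicate 1 (adjusted p = 0.071). Its stalk partners did not pass the test: log2 fold changes were -0.12 for RPLP1 and -0.05 for RPLP2.

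The lower members included RPS26 and RPS27A of the small subunit and RPL36A, RPL38 and RPL36 of the large subunit. RPS26, which contacts the mRNA upstream of the start codon, had 53.2, 67 and 71.2 scaled CPM in PEPD-OE and 78.1, 103.9 and 102.9 in NC. No PEPD-OE library reached an NC library, and the log2 fold change was -0.60 (SE 0.19, adjusted p = 0.0079). RPL36A had 13.3, 26.5 and 12.8 scaled CPM against 27.4, 32.5 and 31.4, with PEPD-OE replicate 2 close to the lowest NC library. It had the largest fall, -0.82 (SE 0.32, adjusted p = 0.037), at a low level. RPS27A, which is made as a fusion with ubiquitin, fell by 0.39 on the log2 scale (adjusted p = 0.028), as did RPL38 (adjusted p = 0.042). RPL36 (opposite LONP1) fell by 0.32 (adjusted p = 0.034). In all 9 called members the PEPD-OE and NC libraries did not overlap, as in 43.5% of all genes. The calls rest on these same values, so the lack of overlap adds no support to them. Only RPL10 and RPL17 were called under every alternative that tested them (both overlap the other strand, so the fit without such genes did not). Without T98G PEPD-OE replicate 1 the count of called members fell to 3, and without T98G NC replicate 3 to 4.

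In U251 even fewer members passed: RPL10 and RPL28 were lower and 0 were higher. The 2 were 2.47% of the members, against 8.55% of all genes (4.13% higher and 4.42% lower). By edgeR 2 members were higher and 5 lower at an unadjusted p under 0.05, and DESeq2 also called 0 higher. The median log2 fold change of the members was -0.06, beside 0.00 over all genes. Within 0.5 of 0 lay 80 of 81 members and 76.5% of all genes, again without matching for level. Groups did not overlap in 8 members (9.88%), against 22.4% of all genes.

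RPL10 had 513.8, 476.3 and 540.3 scaled CPM in U251 PEPD-OE and 697.0, 667.3 and 796.7 in NC. Here all PEPD-OE libraries lay below all NC libraries, the reverse of T98G, with a log2 fold change of -0.50 (adjusted p = 1.0e-04, SE 0.10). AC245140.2 again moved the other way, from 132.4, 135.3 and 112.7 in NC to 218.5, 151.6 and 171.9 in PEPD-OE (log2 fold change 0.50, SE 0.14, adjusted p = 0.013). DNASE1L1 had a log2 fold change of -0.57 (adjusted p = 0.20). RPL28, a large subunit protein, had 260.7, 294.9 and 313.9 scaled CPM in PEPD-OE and 385.2, 378.7 and 402.2 in NC. The groups were apart, and the log2 fold change was -0.42 (SE 0.11, adjusted p = 0.0080), a call lost without U251 NC replicate 3 (adjusted p = 0.062). Leaving out U251 PEPD-OE replicate 3 raised the count of called members to 7, and leaving out U251 NC replicate 3 lowered it to 1. Without U251 PEPD-OE replicate 1, the library that stands apart, the median turned to 0.04. RPL17 had 15.1, 27.5 and 19.2 against 12, 10.3 and 12.8 scaled CPM in U251, and its log2 fold change of 0.82 did not pass (SE 0.35, adjusted p = 0.13).

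**Figure D3:**
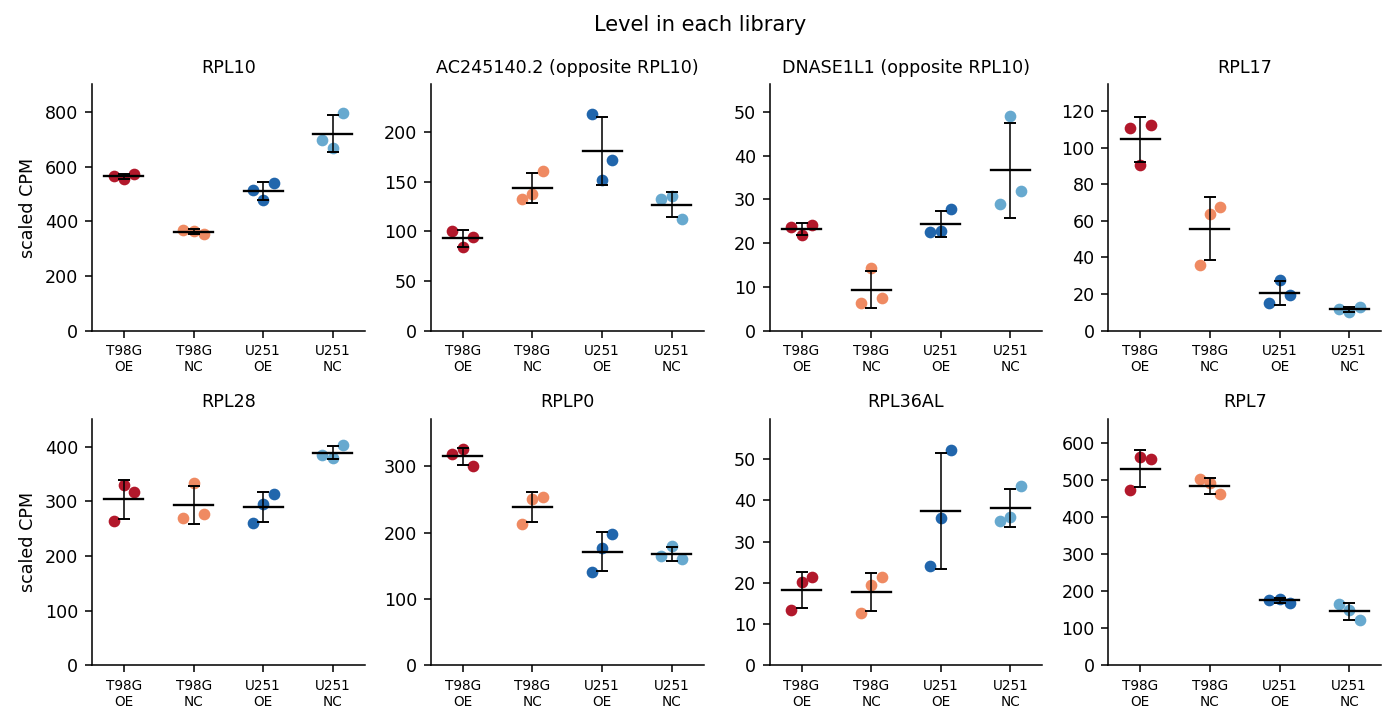
Scaled CPM of 6 members and of AC245140.2 and DNASE1L1, whose exons overlap RPL10 on the other strand, in each library; points are libraries, bars group means, whiskers the SD over 3 libraries, and OE stands for PEPD-OE. RPL10 is higher with PEPD-OE in T98G (553.1 to 572.7 against 352.5 to 369.3) and lower in U251 (476.3 to 540.3 against 667.3 to 796.7), and AC245140.2 does the reverse in both lines.

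The PEPD-OE response differed between the lines for 4 of 81 members (4.94%), 3 with a T98G change above the U251 change and 1 below, against 27.7% of all genes. Without adjustment 6 members had a p under 0.05. RPL10 stood out, with a difference of log2 fold changes of 1.14 (SE 0.15, adjusted p = 3.3e-11). The difference was -1.14 for AC245140.2 (SE 0.21, adjusted p = 5.8e-06) and 1.80 for DNASE1L1 (SE 0.47, adjusted p = 0.0014). The called members included RPL13 with 0.46 (SE 0.16, adjusted p = 0.025) and RPL28 with 0.46 (SE 0.16, adjusted p = 0.026). Both calls were lost under several alternatives, also without U251 PEPD-OE replicate 1, and only that of RPL10 was kept under all that tested it. With 5 of the 12 libraries left out one at a time the count dropped to 1 or 2: T98G PEPD-OE replicate 2, T98G NC replicates 1 and 3, U251 PEPD-OE replicate 2 and U251 NC replicate 3. The members' median difference was 0.03, and it was -0.10 without U251 PEPD-OE replicate 1. The higher and lower calls were 3 and 0 under relative log expression scaling and 3 and 2 under upper-quartile scaling.

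Genes that build ribosomes showed other values than the ribosomal proteins themselves. Of 50 ribosome biogenesis genes tested, 23 were lower and 1 higher in T98G, with a median log2 fold change of -0.66, and 11 were higher and 1 lower in U251, with a median of 0.40. Over all genes tested, 17.7% were higher and 14.7% lower in T98G, and 4.13% higher and 4.42% lower in U251. The change differed between the lines for 28 of 50, 27 of them with the lower change in T98G, where 13.6% of all genes were called in that direction. NOP56, a box C/D snoRNP protein, fell by 1.72 on the log2 scale in T98G (adjusted p = 1.4e-17), and in U251 its log2 fold change was 0.37 (adjusted p = 0.24). NPM1, a nucleolar chaperone whose own mRNA is of the TOP kind, fell by 0.86 in T98G and rose by 0.40 in U251. DDX18, a nucleolar helicase of ribosome assembly, fell by 1.06 in T98G and rose by 0.76 in U251. EMG1, a methyltransferase of the small subunit rRNA, was the exception: it rose by 1.05 in T98G and fell by 0.50 in U251, and its exons overlap a gene on the other strand. Among the 26 biogenesis genes without such overlap, 15 were lower and 0 higher in T98G by edgeR, and 9 were higher and 0 lower in U251. Whether the biogenesis list differs from the ribosomal proteins was not tested.

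**Figure D4:**
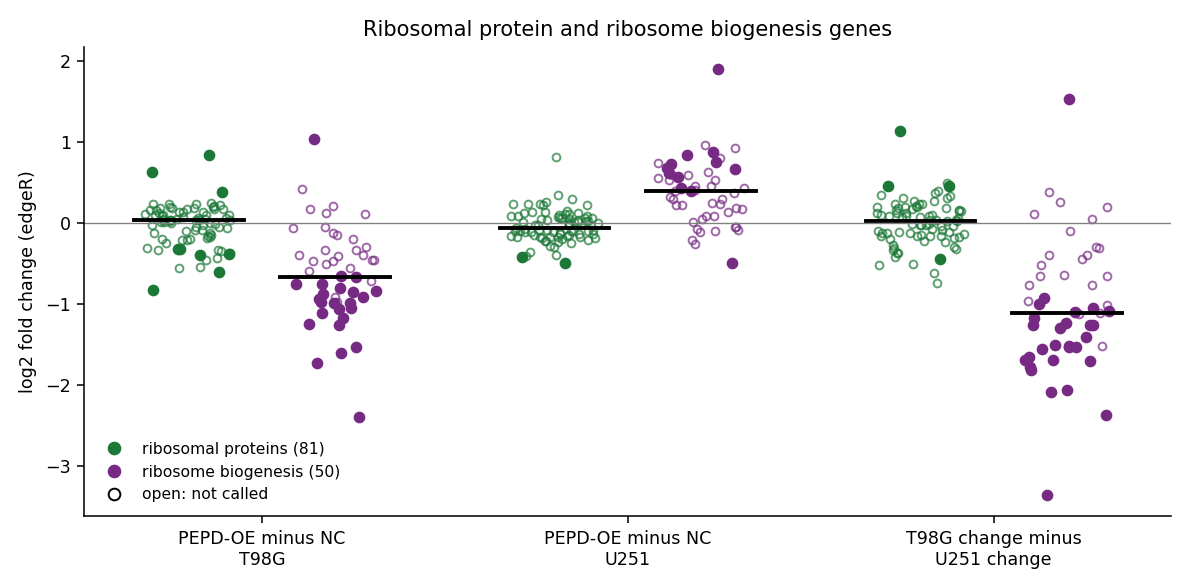
Log2 fold change (edgeR) of the 81 ribosomal protein genes and 50 ribosome biogenesis genes tested, for PEPD-OE minus NC in each line and for the T98G change minus the U251 change; each point is a gene, filled where adjusted p was under 0.05, and black bars are medians. Ribosomal protein genes gather around 0 in all 3 columns (medians 0.04, -0.06 and 0.03), and the biogenesis genes have medians of -0.66, 0.40 and -1.10.

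Other lists around the ribosome were counted in the same way, with no test between lists, and their counts are to be read against the same shares of all genes. Of 22 further TOP mRNAs tested, mostly translation factors, 3 were higher and 2 lower in T98G and 3 were higher and 0 lower in U251 by edgeR. EIF4B (opposite TNS2-AS1), which helps unwind the mRNA, rose by 0.83 in T98G, and PABPC1, the poly(A)-binding protein, rose by 0.69 in U251 (adjusted p = 5.3e-04). Of 21 mTOR, LARP1 and MYC regulators, 7 were lower and 0 higher in T98G and 3 were higher and 0 lower in U251. LARP1, the TOP mRNA binding protein, fell by 0.49 in T98G (adjusted p = 5.9e-04) and rose by 0.39 in U251 (adjusted p = 0.033). MYC, a transcriptional activator of ribosome genes, rose by 1.21 in U251 (adjusted p = 0.014). Of 50 mitochondrial ribosomal proteins, 4 were higher and 6 lower in T98G, and 0 and 2 in U251. Chaperones and importers of ribosomal proteins had 0 higher and 2 lower of 11 in T98G and no call in U251. RNA polymerase I and III genes had 2 higher and 3 lower of 20 in T98G, and 2 and 1 in U251. Among 12 snoRNA host transcripts 2 were higher and 3 lower in T98G, and 0 and 2 in U251.

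More members were called between the lines than between treatments of a line. Between the NC groups, 43 members were higher and 8 lower in T98G than in U251, 63.0% of the 81, against 48.7% of all genes. Higher calls made up 53.1% of members against 24.4% of all genes, and lower calls 9.88% against 24.3%. The members' median log2 fold change was 0.36, beside 0.00 over all genes. Groups did not overlap in 57 members (70.4%), against 55.1% of all genes. Between the PEPD-OE groups, 47 were higher and 5 lower, 64.2% against 52.6% of all genes (26.3% higher and 26.3% lower), with a median of 0.39 beside -0.04; 50 (61.7%) did not overlap, against 55.9% of all genes. Without U251 PEPD-OE replicate 1 the higher calls numbered 36 and the lower 8. In both pairs of groups, 39 members were higher in T98G, 4 were lower (RPL32, RPL36, RPL36AL and RPS15), and 0 were called in opposite directions. These contrasts use different libraries but the same lines, so their agreement is no separate result about the members. How many of all genes were called alike in both was not counted. Other TOP mRNAs had 18 higher and 2 lower of 22 between the NC groups, and biogenesis genes 28 higher and 2 lower of 50, with medians of 0.68 and 0.71. Between the PEPD-OE groups the other TOP mRNAs had 13 higher and 1 lower, with a median of 0.60, whereas the biogenesis genes had 5 higher and 17 lower, with a median of -0.31.

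RPL17 had the largest difference between the lines. Its T98G NC values, given above, ranged from 35.9 to 67.7 scaled CPM, and the U251 NC values from 10.3 to 12.8. The log2 fold change was 2.29 (SE 0.29, adjusted p = 4.2e-12). RPL7, a large subunit protein, had 502.2, 492.4 and 461.6 in T98G NC and 166.1, 149.4 and 121.7 in U251 NC. Each T98G value was far above each U251 value, with a log2 fold change of 1.73 (adjusted p = 2.7e-28, SE 0.12). RPS3, at the mRNA entry channel, had 282.8, 326.1 and 317.4 against 130, 128.8 and 117.8, again without overlap (log2 fold change 1.30, adjusted p = 7.8e-17). RPL26L1, a paralogue of RPL26, differed by 1.26 (adjusted p = 0.0013) at a low level. RPS2, the member with the most counts, differed by 0.90 (SE 0.08, adjusted p = 4.0e-19).

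RPL5 and RPL11, which carry the 5S RNA into the large subunit and can bind MDM2 when assembly fails, were both higher in T98G NC. RPL11 had 603.5, 596.4 and 639.8 scaled CPM against 441.8, 412.2 and 427.8 (log2 fold change 0.52, adjusted p = 7.7e-06), and RPL5 (opposite DIPK1A) differed by 0.72 (adjusted p = 1.1e-05). Neither passed the test for PEPD-OE in a line: their log2 fold changes ran from -0.11 to 0.02. Among the stalk proteins RPLP0 differed by 0.52 (adjusted p = 4.3e-04) and RPLP2 by 0.47 (adjusted p = 0.010), while RPLP1 had 0.16 (adjusted p = 0.32). In the large subunit as a whole, stalk included, 26 of 46 core members were higher and 5 lower in T98G NC. In the small subunit 16 of 31 core members were higher and 2 lower. The shares over all genes were 24.4% higher and 24.3% lower, and the subunits were not tested against each other.

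The 8 members lower in T98G NC were RPL36AL, RPL10, RPL36, RPL15, RPS28, RPS15, RPL28 and RPL32. RPL36AL had 12.7, 19.5 and 21.3 scaled CPM in T98G NC and 34.9, 36.1 and 43.6 in U251 NC. The groups were apart, and the log2 fold change was -1.03 (SE 0.29, adjusted p = 0.0019). Its parent RPL36A showed 0.01 (adjusted p = 0.98). RPL10 followed with -0.99 (SE 0.10, adjusted p = 5.7e-16), but between the PEPD-OE groups it had 0.15 (adjusted p = 0.23). AC245140.2 had 0.19 between the NC groups (adjusted p = 0.29) and -0.94 between the PEPD-OE groups (adjusted p = 3.3e-08). The other 6 ranged from -0.51 to -0.32. Of the 8, 5 overlap a gene on the other strand, as do 17 of the 43 higher members.

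Where the partner held more counts than the member, both names recorded differences between the NC groups in the same direction. RPL30 was higher in T98G by 0.67 (SE 0.16) and RPL30-AS1 by 0.75 (SE 0.09). RPS23 was higher by 0.67 (SE 0.14) and ATG10 by 0.70 (SE 0.09). RPL15 was lower by a log2 fold change of -0.46 (SE 0.14) and NKIRAS1 by -0.99 (SE 0.08). For RPL31 (0.66), the opposite AC016738.1 differed by 2.66, and for RPL36 (-0.51) the opposite LONP1 had 0.21, which did not pass (adjusted p = 0.32). Among the 51 members tested without overlap, 26 were higher and 3 lower, with a median of 0.33. Of all genes tested, with or without overlap, 24.4% were higher and 24.3% lower. Higher levels in T98G were thus recorded in both kinds of member. From which strand the reads of either kind came was not tested.

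The difference between the lines varied by chromosome, for members and for the other genes alike. On chromosome 8 all of RPL7, RPL8, RPL30 and RPS20 were higher in T98G NC, with a median log2 fold change of 0.98, and the other 279 genes tested there had a median of 0.52, with 40.5% called higher. All 5 members on chromosome 11 were higher, where the other genes had a median of 0.31, with 33.6% called higher. On chromosome 19, 12 members had 1 higher and 4 lower, with a median of 0.04, and the other 599 genes had -0.54, the lowest median of 23 chromosomes, with 6.84% called higher and 45.7% lower. Between the PEPD-OE groups the members there had 5 higher and 2 lower and a median of 0.22, and the other genes a median of -0.43. On the 12 chromosomes whose other genes had a median above 0, 29 of 32 members were higher and 0 lower by edgeR, where 34.3% of the other genes were higher and 15.1% lower. On the 11 with a median below 0, 14 of 49 were higher and 8 lower, where 15.9% of the other genes were higher and 31.6% lower. Split in the same way by their own medians, the PEPD-OE groups gave 27 of 32 higher and 0 lower by edgeR (other genes 34.5% and 16.8%), and 20 of 49 higher and 5 lower (other genes 18.7% and 34.2%). Medians of chromosomes 1, 10 and 15 in the second set lay close to 0, at -0.01, -0.01 and -0.04. Copy number of the chromosomes was not analysed here, and its part in these differences was not tested.

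**Figure D5:**
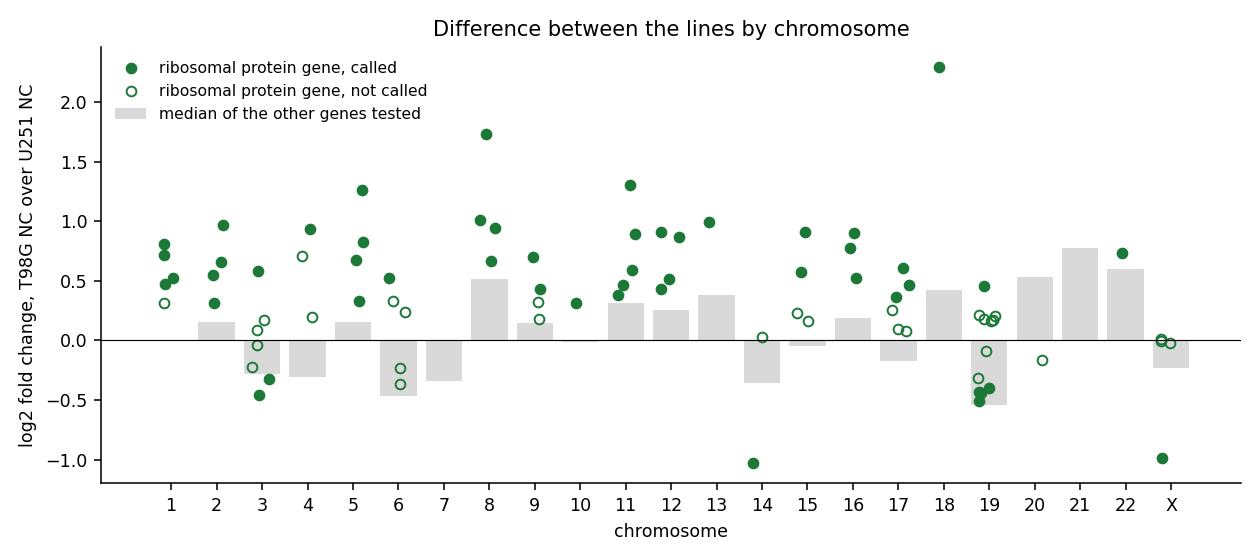
Log2 fold change of each ribosomal protein gene between T98G NC and U251 NC by chromosome (points, filled where adjusted p was under 0.05), over grey bars that give the median of all other genes tested on the chromosome. Points on chromosomes 8 and 11 lie above 0 like their bars, the 12 on chromosome 19 have a median of 0.04 over a bar at -0.54, and RPL17 on chromosome 18 is the highest point.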

How the data were processed

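The authors deposited a table of raw counts per Ensembl gene, with 1 column for each of 12 libraries. GRCh38, HISAT2, featureCounts, Subread, fastp and FastQC are named without versions, per the submitters' processing notes. The strand setting and the annotation release behind the counts were not given in the sources used here. Per the labels, polyadenylated RNA was captured and a dUTP kit kept the strand. GENCODE release 29, with 92.1% of the identifiers, gave positions, exon lengths (all annotated exons of a gene merged) and overlaps. Counts were tested with edgeR 4.0.16 in R 4.3.3: filterByExpr with a minimum count of 10, TMM scaling, and a robust quasi-likelihood fit of 4 groups to all libraries (8 residual degrees of freedom). P-values were two-sided and adjusted by Benjamini and Hochberg over 8773 genes. The SE was derived as log2 fold change over root F. Precision follows from 464056 to 924204 counts per library, and the floor of 3 counts covers counting error only. Symbols matched the table, and promoter windows came from RefSeq. The fit was tested on simulated data with known changes.

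The members and the gene lists were chosen with earlier results of these data known. Named were PEPD, members called in any contrast, the members with the most counts per kb, paralogues and their parents, RPL5 and RPL11, members whose partners had the most counts, and up to 4 called genes of each further list. RPS10, RPL34 and RPS29 were named after their values were seen. Alternatives were other scalings, DESeq2 1.42.0, other filters, fewer libraries, a replicate block and genes without opposite-strand overlap. Figures were drawn with matplotlib 3.10.9. Some members are not reported here by name.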

Additional observations from a re-analysis of the deposited data

Results flagged for a closer look

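The response to PEPD-OE differed between the lines for the members below by a direct test of the difference (edgeR, adjusted over all genes), as differences of log2 fold changes, T98G minus U251. RPL10 had 1.14, with 3 of 3 libraries higher in T98G and 3 of 3 lower in U251. RPL13 had 0.46 and RPL28 had 0.46. AC245140.2, opposite RPL10, had -1.14, and the source of the reads under both names was not tested.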

How the results depend on the processing

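Of 3618 values under alternatives, 170 lost their call and 81 moved by more than the limit set; the other 3367 stayed on their side of the threshold or within that limit. No called value changed sign, while medians close to 0 did in 30 cases. The called members kept under every alternative that tested them were 2 of 9 in T98G, 1 of 2 in U251, 1 of 4 for the difference between lines, 43 of 51 between the NC and 36 of 52 between the PEPD-OE groups. Low depth limits members of few counts, and the strand of the reads limits all.

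Called members in T98G numbered 3 by DESeq2, 4 without a filter, 5 with a filter of 1 CPM in 3 libraries and 14 with the T98G libraries alone; for the difference between lines they were 2, 1 and 2, and a fit to the compared libraries alone does not apply there. DESeq2 called 425 genes in U251, where edgeR called 750. The cause of these shifts was not tested. The fit to genes without opposite-strand overlap is given next as counts only. Without shares of the genes tested in it, its member counts cannot be set against a background. Among genes without opposite-strand overlap, fewer genes were tested: 1140 genes and 2 members were called in T98G, 245 and 1 in U251, 917 and 2 for the difference, 1843 and 27 (24 higher, 3 lower) between the NC groups, and 2043 and 29 (26 higher, 3 lower) between the PEPD-OE groups.

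With each library left out in turn, called members ranged from 3 to 12 in T98G, 1 to 7 in U251 and 1 to 5 for the difference, and members lower between the PEPD-OE groups from 3 to 8. The genes called in U251 ranged from 440 to 742. Without both T98G NC replicate 1 and U251 PEPD-OE replicate 1, chosen after seeing the data, 8 were lower. The T98G median, 0.04, turned to -0.02 without T98G NC replicate 1 and to -0.01 under upper-quartile scaling. Without U251 PEPD-OE replicate 1 the U251 median turned from -0.06 to 0.04 and that of the difference from 0.03 to -0.10. Without mitochondrially encoded genes in the total, the members' mean share was 2.20% in T98G PEPD-OE, 2.43% in T98G NC and 1.69% in U251 NC; with pseudogenes added it was 1.64% in U251 NC.

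Replicate numbers are not stated to pair the samples. Same-numbered libraries of a line had correlations of deviations from -0.042 to 0.058, and differently numbered ones from -0.044 to 0.039. Same-numbered libraries of T98G and U251 had 0.034 to 0.077 in PEPD-OE and -0.004 to 0.023 in NC. Such values show no strong shared effect and cannot tell whether samples were paired. With the replicate block, 9 members were called in T98G, 2 in U251, 4 for the difference, 54 between the NC and 53 between the PEPD-OE groups.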
